A study of Drosophila melanogaster with 12 samples.

Results

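The genotype by cell fraction interaction asks, gene by gene, whether the loss of rfx changed RNA levels by the same amount in both sorted cell fractions of the Drosophila melanogaster larval brain. It is the difference between GFP-positive and GFP-negative cells in rfx knock-out (KO) brains minus that difference in wild-type (WT) brains, which equals the KO minus WT difference in GFP-positive cells minus that in GFP-negative cells. All 12 of the 12 libraries of the series entered it, 3 in each of 4 groups: KO GFP-positive, WT GFP-positive, KO GFP-negative and WT GFP-negative. Brains of larvae early in instar 3 were dissociated, cells were sorted by FACS, and each library was made from 4 ng of total RNA. The labels call the cells of all 4 groups neurons, and the title of the series describes the neurons studied as expressing Rfx. The labels name neither the driver of GFP, the rfx allele, the number of animals behind a library nor their sex. Replicates are numbered in accession order. No label says that they came from separate dissections, so p-values measure only the spread between libraries.

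Libraries held 20301256 to 29771321 reads in the gene table. Values are normalised counts: each library's reads per gene over its effective size, on a CPM scale. The share of reads from rRNA genes stood apart in KO GFP-positive replicate 3, at 2.54%, and in WT GFP-positive replicate 2, at 12.2%. It was 0.289% to 0.976% elsewhere. Fractions were separated on the first principal component, with 66.4% of the variance, and the second had 12.6%. In both fractions elav, a pan-neuronal RNA-binding protein, was expressed, with means of 596 in KO GFP-positive, 584 in WT GFP-positive, 628 in KO GFP-negative and 659 in WT GFP-negative libraries. A list of 9 neuronal genes that includes elav was higher in GFP-positive cells, summing to 9364 to 12797 in KO GFP-positive, 9768 to 12363 in WT GFP-positive, 4640 to 5911 in KO GFP-negative and 5008 to 5832 in WT GFP-negative libraries. The GFP-negative libraries also held RNA of neuroblasts, the dividing stem cells of the brain, so the label "neuron" does not cover all cells of that fraction. The neuroblast factor wor averaged 7.33 in KO GFP-positive, 5.87 in WT GFP-positive, 564 in KO GFP-negative and 443 in WT GFP-negative libraries. Eaat1, a glutamate transporter of glia, averaged 17.4, 14.1, 245 and 213 in those groups in that order. elav, wor and Eaat1 were chosen for this check after their values were seen.

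RFX proteins are transcription factors that bind the X-box, a DNA motif in promoters of ciliary genes. Cilia are built by intraflagellar transport (IFT), in which kinesin-2 carries IFT-A and IFT-B complexes outward along the axoneme, the microtubule core. A transition zone at the ciliary base controls what enters. In Drosophila, cilia of somatic cells are known from sensory neurons of the peripheral nervous system, where Rfx is required to make them.

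Rfx itself (FBgn0020379, chromosome 3R, 10361760 to 10378068, minus strand, BDGP6) had normalised counts of 1322, 1035 and 1021 in KO GFP-positive libraries, against 2918, 2542 and 2918 in WT GFP-positive libraries. It had 52.3, 52.3 and 54.5 in KO GFP-negative libraries, against 73.5, 74.1 and 73.5 in WT GFP-negative libraries. Every KO library lay below every WT library of its fraction, and both genotypes had far more Rfx RNA in GFP-positive than in GFP-negative cells. The KO over WT ratio of means was 0.403 in GFP-positive and 0.720 in GFP-negative cells, and the interaction was -0.85 (SE 0.151, adjusted p = 0.0236). This call was made in 2 of the 12 fits that leave out 1 library, with a highest adjusted p of 0.0846 without WT GFP-negative replicate 3. The labels do not say which part of the gene is missing, and counts over the whole gene do not show which exons the remaining reads came from.

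Of 9912 genes tested, 55 had an interaction past a Benjamini-Hochberg adjusted p of 0.05 in limma-trend, which is 0.555% of the genes tested. Of these 28 (0.282%) had a positive interaction, that is, KO GFP-positive cells had more RNA than the other 3 groups would give by addition on the log2 scale, and 27 (0.272%) had a negative one. The count of 55 became 117 with DESeq2 and 101 with libraries blocked by run of title numbers, 32 without the 4 libraries whose titles are numbered 1 to 4, and 34 without KO GFP-negative replicate 1. In all 55 genes the interaction came with a genotype difference in GFP-positive cells. Among the 28 positive genes the KO minus WT difference in GFP-positive cells ran from 0.66 to 4.64 (median 1.73, log2(value + 1)), and among the 27 negative genes from -5.89 to -0.94 (median -2.09). In GFP-negative cells the same difference ran from -0.71 to 0.67 (median 0.03) for the positive genes and from -0.55 to 0.35 (median -0.17) for the negative genes. Adjusted p for the genotype difference was at most 0.00795 in GFP-positive cells and at least 0.0948 in GFP-negative cells for these 55 genes. The smallest of the GFP-negative values was that of Rfx. In GFP-negative cells these 55 genes had a median absolute difference of 0.17, close to the 0.15 of all genes tested, while in GFP-positive cells it was 1.79 against 0.13 for all genes tested. Both differences are terms of the contrast that chose the genes, so these ranges describe them and are no further support. Adding 1 also compresses differences of genes near the floor, such as IFT57, B9d1 and dnd, with WT GFP-negative means of 0.410, 0.470 and 0.954. Their KO over WT ratios of means in GFP-negative cells were 0.879, 0.672 and 0.486. A lower level in KO GFP-negative cells is thus not excluded for such genes.

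KO and WT GFP-positive libraries did not overlap in any of the 55 genes, against 14.1% of all genes tested without overlap. KO and WT GFP-negative libraries did not overlap in 6 of the 28 positive and 7 of the 27 negative genes, against 16.1% of all genes tested. The same libraries chose the 55 genes, so both counts describe them and are no further support. For comparison, 304 genes (3.07%) were called between KO and WT in GFP-positive cells, 173 (1.75%) higher and 131 (1.32%) lower. In GFP-negative cells 68 genes (0.686%) were called, 43 (0.434%) higher and 25 (0.252%) lower. Of the 55 genes, 30 were called in all 12 fits that leave out 1 library. For the other 25 the highest adjusted p among the 12 is given below, with the number of fits that made the call where more than 1 lost it. A gene called between KO and WT in only 1 fraction is not thereby shown to differ between fractions, which is what the interaction tests. For the median gene the 95% interval of the interaction reached 0.54 to each side. With such an error a call after adjustment over all genes needed a larger difference than that. An uncalled gene is thus not shown to change equally in both fractions at this depth and number of libraries. RNA was measured in bulk, so fewer cells of a type and less RNA per cell cannot be told apart in any of these values.

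**Figure D1:**
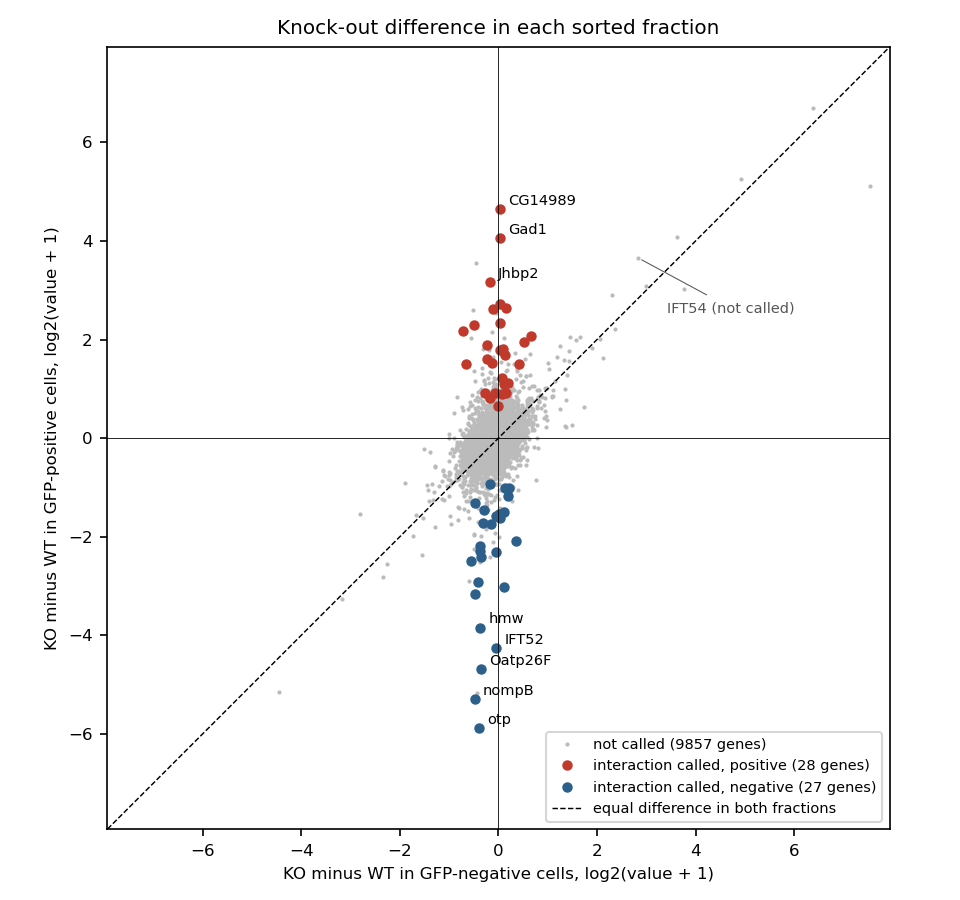
KO minus WT difference in GFP-negative cells (x) and in GFP-positive cells (y), both on log2(value + 1), for all 9912 genes tested; red and blue points are the 28 positive and 27 negative called interactions and the dashed line marks an equal difference in both fractions. The called genes lie along the vertical axis, between -0.71 and 0.67 in GFP-negative cells, while IFT54 lies close to the dashed line.

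The 55 genes can also be described by the contrast between fractions in each genotype. Of the 27 negative genes, 23 were higher in GFP-positive than in GFP-negative cells of WT brains, and 4 were lower. Among the 28 positive genes the order was the reverse in 23, and the other 5 were higher in GFP-positive cells. Comparing KO with WT, the difference between fractions was smaller with the same sign in 13 negative and 12 positive genes. It had the opposite sign in 10 negative and 11 positive genes, and it was larger with the same sign in 4 negative and 5 positive genes. These counts restate the same contrast in another form. WT GFP-positive libraries were the highest of all 12 in 23 negative genes and the lowest of all 12 in 17 positive genes. KO GFP-positive libraries were below every GFP-negative library in 10 negative genes, overlapped them in 10 and were above them in 7.

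**Figure D2:**
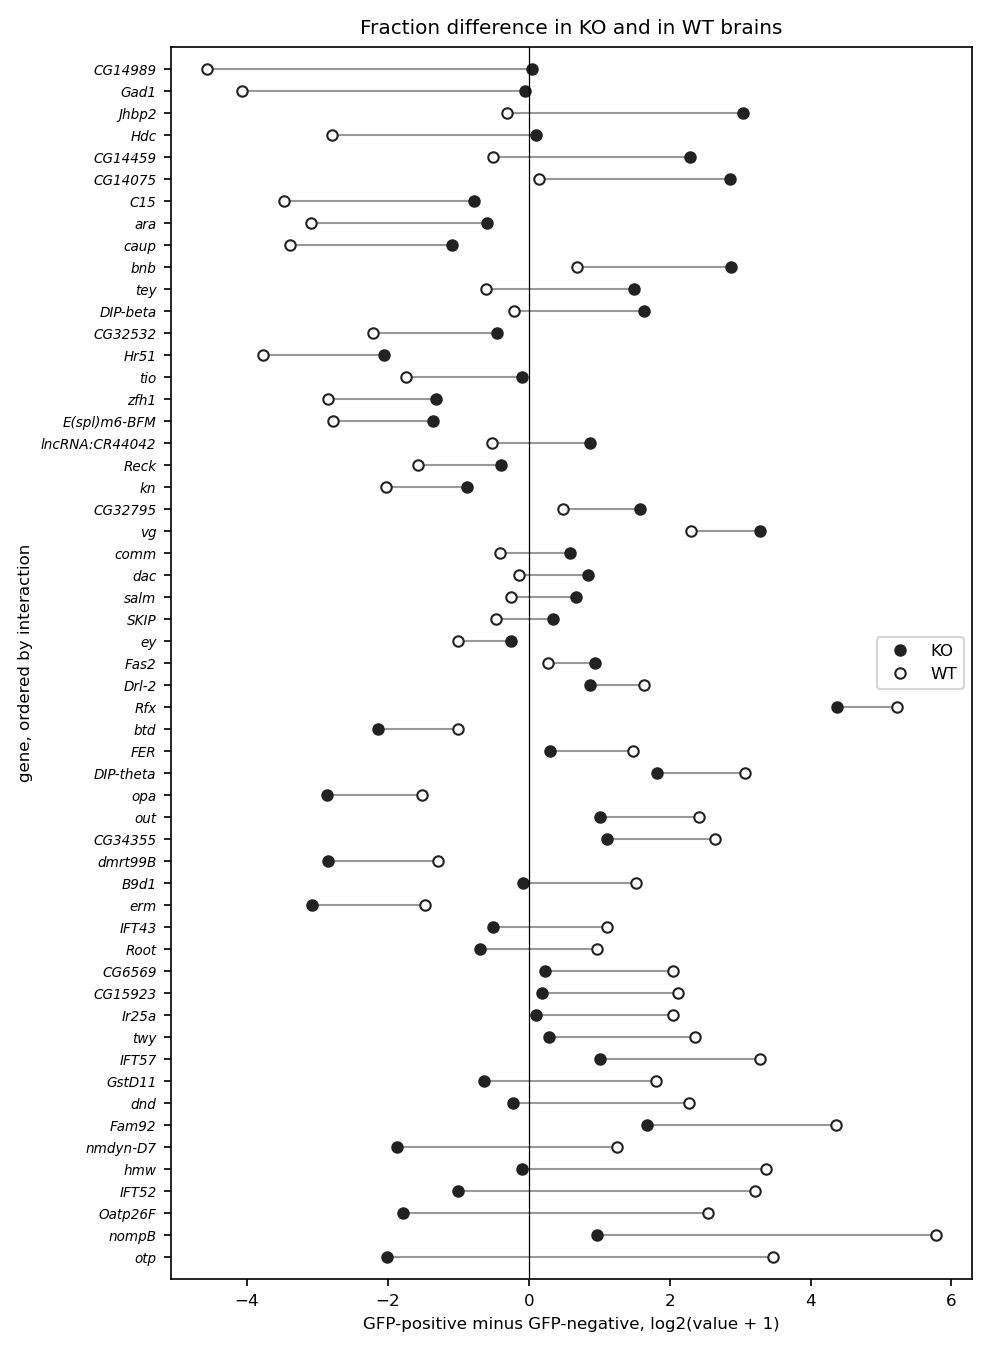
GFP-positive minus GFP-negative difference on log2(value + 1) in KO brains (filled) and WT brains (open) for the 55 called genes, ordered by interaction, which is the signed length of each line. In the lower part 23 of the 27 negative genes have WT points right of 0, and in the upper part 23 of the 28 positive genes have WT points left of 0.

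Ciliary genes formed the largest named group among the negative interactions. The 5 lists of ciliary genes held 45 tested genes, of which 10 (22.2%) had a negative call and 0 a positive one in limma, with a median interaction of -0.28 against -0.03 over all genes tested. Across all genes 0.272% had a negative call. At an unadjusted p under 0.05, 15 of the 45 were lower and 2 higher, against 1.93% lower and 1.99% higher of all genes tested. On the recovered reads edgeR called 7 lower and DESeq2 10 lower, and neither called one higher. These lists were drawn up with earlier results of these data known, so the share is a description.

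The IFT-B complex carries cargo toward the ciliary tip, and 3 of its 8 tested subunits had a negative call (median interaction of the list -1.38). nompB, the fly IFT88 subunit (FBgn0016919, 2L, 21578292 to 21589423), had normalised counts of 1.76, 4.58 and 1.68 in KO GFP-positive libraries, against 140, 128 and 135 in WT GFP-positive libraries. In KO GFP-negative libraries it had 0.648, 0.497 and 1.22, against 1.87, 1.07 and 1.54 in WT GFP-negative libraries. Only the WT GFP-positive libraries were high, and KO and WT overlapped in GFP-negative cells. The interaction was -4.80 (SE 0.380, adjusted p = 6.41e-05), and the KO over WT ratio in GFP-positive cells was 0.0199, or 0.0128 without KO GFP-positive replicate 2.

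IFT52, another IFT-B subunit (FBgn0031829, 2L, 6555717 to 6557502), had 0.112, 0.157 and 0.588 in KO GFP-positive libraries, against 26.3, 20.3 and 23.7 in WT GFP-positive libraries. Its GFP-negative values were 1.51, 1.28 and 1.87 in KO libraries and 2.62, 1.11 and 1.35 in WT libraries. KO GFP-positive cells were thus below the GFP-negative cells of either genotype, with 22 reads over the 3 libraries. The interaction was -4.22 (SE 0.329, adjusted p = 6.41e-05). The KO over WT ratio in GFP-positive cells was 0.0122, or 0.00574 without KO GFP-positive replicate 3. IFT57 (FBgn0031550, 2L, 3530789 to 3532678), also of IFT-B, had 2.02, 1.45 and 1.68 in KO GFP-positive libraries, against 12, 10.7 and 15.3 in WT GFP-positive libraries. Its interaction of -2.27 (SE 0.296, adjusted p = 0.00238) was not called by edgeR on the recovered reads (adjusted p = 0.194). It rested on 32 reads in KO GFP-negative and 31 in WT GFP-negative cells, where means were 0.360 and 0.410.

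Of the other IFT-B genes, Oseg5 had -2.25 (adjusted p = 0.0744), with means of 0.651 in KO GFP-positive, 7.52 in WT GFP-positive, 1.22 in KO GFP-negative and 1.47 in WT GFP-negative libraries. IFT54 was the IFT-B gene with a genotype difference in both fractions. It had 27.7, 28.7 and 22.0 in KO GFP-positive libraries against 1.36, 1.02 and 1.04 in WT GFP-positive libraries, and 15.0, 13.4 and 11.8 in KO GFP-negative libraries against 0.994, 1.11 and 0.941 in WT GFP-negative libraries. All 6 KO libraries were higher than all 6 WT libraries. Its interaction of 0.83 (95% interval 0.32 to 1.33, adjusted p = 0.294) did not pass the test. Ttc30, Oseg2 and Ttc26 were not called, with interactions of -0.51, 0.28 and -0.10.

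The IFT-A complex and the motors, which serve retrograde and anterograde transport, had 1 negative call among 9 tested genes (median interaction -0.11). IFT43, an IFT-A subunit (FBgn0032446, 2L, 12693872 to 12694988), had 2.10, 2.35 and 2.59 in KO GFP-positive libraries, against 9.23, 7.94 and 10.6 in WT GFP-positive libraries. GFP-negative cells had 3.52, 3.91 and 3.75 in KO libraries and 3.22, 4.95 and 3.12 in WT libraries. The 3 KO GFP-positive libraries were the lowest of all 12 (interaction -1.62, SE 0.259, adjusted p = 0.0128). The kinesin-2 motor subunit Klp68D averaged 192 ± 28.3 in KO GFP-positive and 246 ± 17.1 in WT GFP-positive libraries (SD, n = 3 each), and its interaction was -0.28 (95% interval -0.65 to 0.09).

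Among genes of the BBSome, small GTPases and the rootlet, 2 of 9 had a negative call (median interaction -0.16). dnd, the fly Arl3 GTPase, which in mammals releases lipid-modified cargo inside the cilium (FBgn0038916, 3R, 21885676 to 21887355), had 0.112, 0.0392 and 0.627 in KO GFP-positive libraries, against 8.33, 9.29 and 7.50 in WT GFP-positive libraries. GFP-negative values were 0.123, 0.568 and 0.698 in KO libraries and 1.43, 0.640 and 0.790 in WT libraries. WT GFP-positive cells alone stood out, and the other groups were near the level of a few reads, with 20 reads over the 3 KO GFP-positive libraries. The interaction was -2.50 (SE 0.343, adjusted p = 0.00341), and edgeR on the recovered reads did not call it (adjusted p = 0.328). The KO over WT ratio in GFP-positive cells was 0.0310, or 0.00904 without KO GFP-positive replicate 3. Of the annotated exon bases of dnd, 25.8% are shared with CG6678 on the opposite strand, and the library kit keeps no strand, so reads there cannot be assigned to either gene.

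Root, which encodes the fly rootletin of the ciliary rootlet, had 12.2, 7.37 and 11.1 in KO GFP-positive libraries against 39.9, 26.4 and 34.3 in WT GFP-positive libraries. It had 14.8, 15.8 and 20.1 in KO GFP-negative and 18.7, 17.5 and 13.5 in WT GFP-negative libraries. The KO GFP-positive libraries were below all others and the WT GFP-positive ones above all others (interaction -1.65, SE 0.298, adjusted p = 0.0248). The call was made in 5 of the 12 fits that leave out 1 library, with a highest adjusted p of 0.0937 without WT GFP-negative replicate 3.

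At the transition zone and ciliary base 2 of 8 tested genes had a negative call (median interaction -0.90). Fam92, which works with Chibby where the cilium is anchored (FBgn0032428, 2L, 12424904 to 12426440), had 8.42, 7.76 and 5.17 in KO GFP-positive libraries, against 67.6, 62.8 and 82.0 in WT GFP-positive libraries. Its GFP-negative values were 2.35, 1.31 and 1.00 in KO libraries and 2.39, 2.56 and 2.48 in WT libraries. KO GFP-positive cells kept more Fam92 RNA than GFP-negative cells of either genotype (interaction -2.68, SE 0.308, adjusted p = 0.00115). B9d1, of the MKS module of the transition zone, averaged 0.272 in KO GFP-positive, 3.19 in WT GFP-positive, 0.316 in KO GFP-negative and 0.470 in WT GFP-negative libraries. Its interaction of -1.59 lay at the threshold (adjusted p = 0.0487), was called in 1 of the 12 fits that leave out 1 library (highest adjusted p 0.166 without KO GFP-negative replicate 1) and rested on 21 reads in KO GFP-positive libraries. On the recovered reads edgeR did not call B9d1 (adjusted p = 0.666), and DESeq2 gave it no adjusted p. Cep290, a transition zone protein, averaged 112 ± 13.7 in KO GFP-positive and 165 ± 38.5 in WT GFP-positive libraries (SD, n = 3 each; interaction -1.09, limma adjusted p = 0.191), and DESeq2 called it (adjusted p = 0.0379). dila, which acts at the ciliary base, averaged 6.71, 28.9, 2.43 and 3.39 in KO GFP-positive, WT GFP-positive, KO GFP-negative and WT GFP-negative libraries (interaction -1.63, adjusted p = 0.107).

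Axonemal and motility genes had 2 negative calls among 11 tested (median interaction -0.46). hmw (hemingway, FBgn0038607, 3R, 18361994 to 18364277), needed for sperm flagella and for motile cilia of fly hearing neurons, had 0.299, 0.705 and 0.509 in KO GFP-positive libraries against 19.2, 23.9 and 18.8 in WT GFP-positive libraries. It had 0.679, 0.568 and 0.567 in KO GFP-negative and 1.59, 0.597 and 1.17 in WT GFP-negative libraries. WT GFP-positive cells alone were high (interaction -3.47, SE 0.294, adjusted p = 8.24e-05). nmdyn-D7, the fly homolog of the nucleoside diphosphate kinase NME7 (FBgn0028997, 3R, 9679939 to 9681502), had 1.83, 1.45 and 2.15 in KO GFP-positive libraries against 21.1, 19.0 and 25.6 in WT GFP-positive libraries. Its GFP-negative values were 5.80, 11.3 and 11.8 in KO libraries and 7.51, 8.19 and 9.97 in WT libraries. The KO GFP-positive libraries were again the lowest of all 12 (interaction -3.13, SE 0.335, adjusted p = 0.000645). The 9 uncalled genes of the list had interactions between -0.60 and 0.33.

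**Figure D3:**
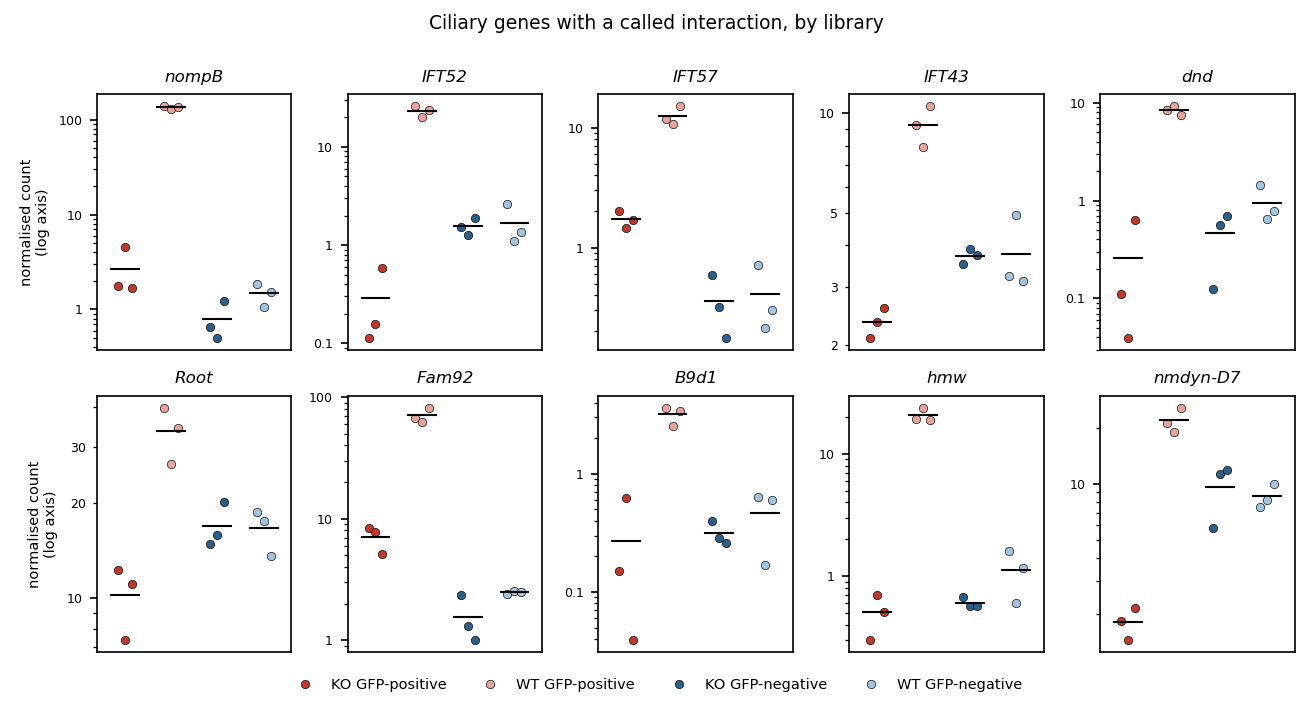
Normalised counts (log axis) of the 10 ciliary genes with a called interaction, 1 point per library and a bar at the mean of each group of 3. WT GFP-positive libraries are above all other libraries in each panel, and KO GFP-positive libraries are the lowest of the 12 for IFT52, IFT43, Root and nmdyn-D7.

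Of the 7 genes beside Rfx in a list of genes that mark ciliated mechanosensory neurons, 0 were called by limma, edgeR or DESeq2, with 1 higher and 1 lower at an unadjusted p under 0.05. Over all genes tested 1.99% were higher and 1.93% lower at that unadjusted p in limma. The channel genes nompC and iav averaged 1.90 and 1.55 in KO GFP-positive libraries and 5.08 and 1.72 in WT GFP-positive libraries, with interactions of -0.55 (95% interval -1.67 to 0.58) and 0.08 (95% interval -0.61 to 0.78). eys, an extracellular protein around sensory cilia and photoreceptors, was the abundant one, averaging 121 in KO GFP-positive, 66.4 in WT GFP-positive, 49.5 in KO GFP-negative and 47.9 in WT GFP-negative libraries (interaction 0.83, 95% interval 0.07 to 1.59, adjusted p = 1.00).

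Outside the ciliary lists, otp had the largest negative interaction of all genes tested (-5.48, SE 0.713, adjusted p = 0.00238). otp (FBgn0015524, 2R) encodes the homeodomain factor Orthopedia. It had 3.78, 29.7 and 4.23 in KO GFP-positive libraries against 536, 560 and 529 in WT GFP-positive libraries, and 37.0, 35.7 and 35.4 in KO GFP-negative libraries against 48.5, 48.5 and 47.2 in WT GFP-negative libraries. Every KO GFP-positive library was below every GFP-negative one, although replicate 2 stood apart. The KO over WT ratio in GFP-positive cells was 0.0232, or 0.00739 without that replicate. DESeq2 gave otp no adjusted p.

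Oatp26F, an organic anion transporter (FBgn0051634, 2L, 6625138 to 6632407), had 3.07, 5.84 and 5.13 in KO GFP-positive libraries, against 131, 144 and 152 in WT GFP-positive libraries. Its GFP-negative values were 16.8, 17.7 and 20.1 in KO libraries and 16.5, 27.2 and 28.4 in WT libraries, so KO GFP-positive cells were below GFP-negative cells of both genotypes. The interaction was -4.34 (SE 0.310, adjusted p = 5.96e-05), the smallest adjusted p of any gene tested. Of its exon bases 9.18% are shared with CG34345 on the opposite strand.

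Several further genes high in WT GFP-positive cells were reduced in KO GFP-positive cells but stayed above, or close to, the GFP-negative level. CG34355 (FBgn0085384, 3R, 23803859 to 23859167) had 228, 211 and 181 in KO GFP-positive libraries, against 621, 579 and 647 in WT GFP-positive libraries. It had 104, 92.2 and 88.9 in KO GFP-negative and 103, 94.7 and 95.7 in WT GFP-negative libraries, and its interaction was -1.53 (SE 0.147, adjusted p = 0.000292). FER, a non-receptor tyrosine kinase of the Fps/Fes family, had 90.9, 81.0 and 92.9 in KO GFP-positive libraries against 268, 227 and 243 in WT GFP-positive libraries. With 70.7, 72.3 and 71.3 in KO GFP-negative and 79.0, 94.9 and 88.7 in WT GFP-negative libraries, the KO GFP-positive cells lay near the WT GFP-negative level (interaction -1.18, SE 0.142, adjusted p = 0.00145). DIP-theta, a cell surface immunoglobulin protein that binds Dpr partners, averaged 97.7 ± 12.3 in KO GFP-positive and 198 ± 10.2 in WT GFP-positive libraries, and 27.2 ± 6.00 in KO GFP-negative and 22.8 ± 1.16 in WT GFP-negative libraries (SD, n = 3 each; interaction -1.24, adjusted p = 0.0206). Drl-2, a Ryk family Wnt receptor, averaged 136 and 263 in KO and WT GFP-positive libraries and 74.3 and 83.7 in KO and WT GFP-negative libraries (interaction -0.77, adjusted p = 0.0451). out, a monocarboxylate transporter-like protein, averaged 5.61 and 20.4, and 2.23 and 2.99, in the same order (interaction -1.42, adjusted p = 0.0383). Of the 12 fits that leave out 1 library, DIP-theta was called in 7 (highest adjusted p 0.0782, without KO GFP-negative replicate 1), Drl-2 in 2 (0.148, without WT GFP-positive replicate 1) and out in 1 (0.129, without KO GFP-negative replicate 1). On the recovered reads edgeR called neither out (adjusted p = 0.0981) nor Drl-2 (0.0550).

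A further 5 genes of this direction had low counts. Ir25a, a co-receptor of ionotropic chemosensory receptors, had 1.16, 1.41 and 2.15 in KO GFP-positive libraries, against 11.3, 10.5 and 19.8 in WT GFP-positive libraries (interaction -1.94, adjusted p = 0.0236). twy averaged 1.20 in KO GFP-positive and 10.7 in WT GFP-positive libraries (interaction -2.06), CG15923 averaged 1.85 and 13.2 (-1.92), and CG6569 averaged 3.15 and 18 (-1.82). In these 4 genes the KO GFP-positive mean lay between the KO and WT GFP-negative means. twy, Ir25a and CG6569 were each called in 6 of the 12 fits that leave out 1 library. The highest adjusted p was 0.0690 for twy and 0.0846 for Ir25a, both without WT GFP-negative replicate 3, and 0.0682 for CG6569 without KO GFP-negative replicate 1. On the recovered reads edgeR did not call twy (adjusted p = 0.270), Ir25a (0.101) or CG15923 (0.0550). GstD11, a glutathione S-transferase, had 0.748, 1.37 and 0.862 in KO GFP-positive libraries against 4.24, 15.9 and 5.76 in WT GFP-positive libraries. WT GFP-positive replicate 2 thus stood apart, the KO over WT ratio of 0.115 became 0.199 without it, and the call (interaction -2.45, adjusted p = 0.0487) was made in 2 of the 12 fits that leave out 1 library, with a highest adjusted p of 0.165 without KO GFP-negative replicate 1.

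The last 4 negative genes, all transcription factors, followed the other order, being lower in WT GFP-positive than in WT GFP-negative cells and lower still in KO GFP-positive cells. erm (earmuff), a zinc finger factor of intermediate neural progenitors, had 12.8, 18.8 and 13.6 in KO GFP-positive libraries against 41.4, 49.0 and 40.9 in WT GFP-positive libraries, and 118, 125 and 156 in KO GFP-negative libraries against 118, 120 and 130 in WT GFP-negative libraries (interaction -1.61, SE 0.213, adjusted p = 0.00271). opa, a Zic family zinc finger factor, had 32.7, 33.1 and 35.1 in KO GFP-positive libraries against 76.5, 67.0 and 88.7 in WT GFP-positive libraries (interaction -1.36, SE 0.189, adjusted p = 0.00370). The GFP-negative means of opa were 253 ± 33.8 in KO and 222 ± 30.5 in WT libraries (SD, n = 3 each). dmrt99B, a factor of the Dmrt family, averaged 21.2 and 62.5 in KO and WT GFP-positive libraries and 158 and 155 in KO and WT GFP-negative libraries (interaction -1.56, adjusted p = 0.0236). btd, an Sp family factor of type II neuroblasts, averaged 9.47 and 20.0, and 44.9 and 40.9, in the same order (interaction -1.13, adjusted p = 0.0355). In all 4 the KO GFP-positive libraries were the lowest of the 12. Of the 12 fits that leave out 1 library, dmrt99B was called in 4 (highest adjusted p 0.0659, without KO GFP-positive replicate 1) and btd in 2 (0.116, without WT GFP-positive replicate 3).

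Markers of neuroblasts and progenitors were compared beside these genes. Of 16 tested genes of neuroblasts and progenitors, 0 had a positive call and 1, btd itself, a negative one (median interaction -0.02). Across all genes tested 0.282% had a positive and 0.272% a negative call. At an unadjusted p under 0.05 in limma, 1 of the 16 was higher and 2 lower, against 1.99% higher and 1.93% lower of all genes tested. The summed level of that list ran from 2714 to 2843 in KO GFP-positive, 2861 to 3163 in WT GFP-positive, 3849 to 4153 in KO GFP-negative and 3678 to 3950 in WT GFP-negative libraries. Every KO GFP-positive sum was thus below every WT GFP-positive sum. Of all genes tested, 14.1% had KO and WT GFP-positive libraries without overlap, in either direction, and the separation of the sums was not tested. brat, which is not limited to neuroblasts, made up most of the GFP-positive sums, with means of 2385 in KO and 2625 in WT GFP-positive libraries. The defining markers wor, ase and mira averaged 7.33, 6.39 and 7.09 in KO GFP-positive and 5.87, 4.17 and 5.97 in WT GFP-positive libraries. Their interactions were -0.09, 0.17 and -0.01. Other genes of the list lay further from 0, at -0.49 for grh, -0.43 for sna and -0.36 for klu, but 0.69 for sc and 0.42 for pnt. None of these was called by limma. The part of neuroblasts in the results above was not tested.

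The positive genes differed in where KO GFP-positive cells stood relative to the GFP-negative level. KO GFP-positive libraries overlapped GFP-negative libraries in 6 genes, were below them all in 8 and above them all in 14. In the 6 overlapping genes (CG14989, Gad1, Hdc, tio, ara and ey) WT GFP-positive libraries were the lowest of the 12. CG14989 (FBgn0035495, 3L, 4087581 to 4092706, plus strand) had 1147, 1556 and 924 in KO GFP-positive libraries, against 53.7, 59.7 and 31.2 in WT GFP-positive libraries. It had 1171, 1512 and 843 in KO GFP-negative libraries, against 955, 1349 and 1088 in WT GFP-negative libraries. The WT GFP-positive libraries alone were low, with an interaction of 4.61 (SE 0.382, adjusted p = 8.14e-05), the largest positive value of any called gene.

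Gad1, the glutamate decarboxylase that makes GABA (FBgn0004516, 3L, 4074077 to 4088744, minus strand), had 318, 556 and 256 in KO GFP-positive libraries, against 19.3, 31.5 and 14.0 in WT GFP-positive libraries. It had 416, 675 and 180 in KO GFP-negative libraries, against 296, 446 and 357 in WT GFP-negative libraries. Again the WT GFP-positive libraries were below all others, and replicate 2 was the highest of each group (interaction 4.02, SE 0.607, adjusted p = 0.00835). The KO over WT ratio in GFP-positive cells was 17.4, between 13.3 and 22.6 when 1 library was left out. Gad1 and CG14989 lie on opposite strands and their annotated spans overlap by 1164 bases, with 0 shared exon bases. Reads from unspliced RNA of the overlap could be counted for either gene, and their part was not tested.

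Of the other genes of fast transmitters, VGAT, the vesicular GABA transporter, averaged 144 ± 17.1 in KO GFP-positive and 104 ± 12.6 in WT GFP-positive libraries (SD, n = 3 each), with an interaction of 0.43 (95% interval -0.05 to 0.90). VGlut, the vesicular glutamate transporter, had 1158, 2274 and 1186 in KO GFP-positive libraries against 1898, 3262 and 1978 in WT GFP-positive libraries, and an interaction of -0.49 (95% interval -1.39 to 0.40). Libraries of the 2 genotypes overlapped for VGlut. Its replicate 2 was the highest in both genotypes, and each KO value was below the WT value of the same replicate number. Neither VGAT nor VGlut was called.

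Hdc, which makes histamine, had 7.04, 9.25 and 7.64 in KO GFP-positive libraries against 1.08, 0.557 and 1.37 in WT GFP-positive libraries, and 6.30, 14.5 and 4.10 in KO GFP-negative libraries against 10.7, 14.8 and 12.8 in WT GFP-negative libraries. Its interaction of 2.89 (SE 0.467, adjusted p = 0.0129) lost its call without KO GFP-negative replicate 1 (adjusted p = 0.0509). It was the called gene in limma among 11 tested genes of monoamine synthesis and transport, whose median interaction was 1.09. Tdc2, which makes tyramine, had 59.3, 183 and 71.7 in KO GFP-positive libraries against 14.6, 19.9 and 10.3 in WT GFP-positive libraries (interaction 3.12, adjusted p = 0.0807). SerT, the serotonin transporter, averaged 9.53 and 1.08 in KO and WT GFP-positive libraries and 9.06 and 12.8 in KO and WT GFP-negative libraries (interaction 2.94, limma adjusted p = 0.198), and DESeq2 called it (adjusted p = 0.00367). ple, the tyrosine hydroxylase of dopamine synthesis, had -1.56 (adjusted p = 1.00), so the members of the list did not share a sign. tio (tiptop), a Teashirt family zinc finger factor, had 42.6, 37.8 and 40.9 in KO GFP-positive libraries against 13.4, 12.2 and 14.9 in WT GFP-positive libraries. With means of 43.6 in KO GFP-negative and 47.2 in WT GFP-negative libraries, KO GFP-positive cells were at the GFP-negative level (interaction 1.64, SE 0.181, adjusted p = 0.000802).

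In the 8 genes of the second kind, most of them transcription factors, KO GFP-positive libraries lay above WT GFP-positive and below GFP-negative libraries. C15, a homeodomain factor of the Hox11 type (FBgn0004863, 3R, 21499986 to 21512814), had 11.3, 9.83 and 8.70 in KO GFP-positive libraries, against 0.934, 0.465 and 0.594 in WT GFP-positive libraries. It had 16.2, 18.1 and 19.1 in KO GFP-negative libraries, against 13.6, 18.1 and 21.4 in WT GFP-negative libraries. The fractions therefore still differed in KO brains, but less (interaction 2.70, SE 0.266, adjusted p = 0.000335). ara and caup, neighbouring Iroquois homeodomain genes on 3L that lie 13612 bases apart, were similar, although ara belongs to the 6 genes whose KO GFP-positive and GFP-negative libraries overlapped. ara had 16.9, 12.6 and 10.6 in KO GFP-positive libraries against 1.15, 0.976 and 1.71 in WT GFP-positive libraries, and means of 20.4 in KO and 18.4 in WT GFP-negative libraries (interaction 2.49, adjusted p = 0.00145). caup had 8.42, 6.27 and 9.28 in KO GFP-positive libraries against 0.682, 0.372 and 1.41 in WT GFP-positive libraries, and means of 18 and 17.7 in KO and WT GFP-negative libraries (interaction 2.30, adjusted p = 0.00229). The KO over WT ratio of caup in GFP-positive cells, 9.72, became 15.2 without WT GFP-positive replicate 3. Related sequences of the Iroquois genes could share reads, which was not tested.

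zfh1, a zinc finger and homeodomain factor, had 68.5, 77.8 and 59.2 in KO GFP-positive libraries against 19.5, 25.2 and 17.8 in WT GFP-positive libraries, and means of 170 and 156 in KO and WT GFP-negative libraries (interaction 1.55, SE 0.185, adjusted p = 0.00145). CG32532 averaged 31.0 ± 3.48 in KO GFP-positive and 8.22 ± 0.482 in WT GFP-positive libraries (SD, n = 3 each; interaction 1.76, adjusted p = 0.000587). Hr51, a nuclear receptor, averaged 7.86 and 1.50 (interaction 1.72, adjusted p = 0.0120), and kn, the COE family factor Knot, 76.8 and 32.9 (interaction 1.15, adjusted p = 0.0236). ey, a Pax6 factor of the overlapping kind, had 130, 122 and 111 in KO GFP-positive libraries against 63.0, 64.5 and 62.9 in WT GFP-positive libraries, close to the 129 ± 4.63 of WT GFP-negative libraries (interaction 0.75, adjusted p = 0.0186). Each of these 5 was lower in WT GFP-positive than in WT GFP-negative cells. E(spl)m6-BFM, a Bearded family gene that responds to Notch, averaged 187 ± 15.7 in KO GFP-positive, 49.2 ± 14.6 in WT GFP-positive, 484 ± 66.5 in KO GFP-negative and 337 ± 48.7 in WT GFP-negative libraries (SD, n = 3 each; interaction 1.42, adjusted p = 0.0248). Reck, a membrane-anchored inhibitor of metalloproteinases, averaged 18.6 in KO GFP-positive and 9.50 in WT GFP-positive libraries (interaction 1.18), with an adjusted p of 0.0487 at the threshold. With 1 library left out, kn was called in 5 of 12 fits (highest adjusted p 0.0836, without KO GFP-negative replicate 1), ey in 5 (0.0696, without KO GFP-negative replicate 3), E(spl)m6-BFM in 4 (0.0998, without WT GFP-negative replicate 3) and Reck in 2 (0.170, without WT GFP-negative replicate 3).

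Summed levels of marker lists were compared between the groups beside these genes. The summed level of 29 cell cycle genes ran from 880 to 922 in KO GFP-positive, 823 to 842 in WT GFP-positive, 3415 to 3977 in KO GFP-negative and 2853 to 3779 in WT GFP-negative libraries. KO GFP-positive sums were thus all above WT GFP-positive sums, as were those of 19 Notch pathway genes, at 975 to 1074 in KO and 784 to 859 in WT GFP-positive libraries. Taken singly, 14.1% of all genes tested had KO and WT GFP-positive libraries that did not overlap, in either direction. The separation of these sums was not tested. E(spl)m6-BFM, a called gene of the Notch list, averaged 187 in KO and 49.2 in WT GFP-positive libraries. It thus made up much of the gap between the Notch sums, and sums without it were not compared. Of those 19, E(spl)m6-BFM was called by limma (list median 0.20), E(spl)mbeta-HLH as well by edgeR, and both of these with E(spl)m7-HLH and E(spl)m8-HLH by DESeq2, all with a positive interaction. Glial genes summed to 473 to 698 in KO GFP-positive and 489 to 514 in WT GFP-positive libraries. Of the 29 cell cycle, 12 glial and 9 pan-neuronal genes, 0 were called by limma or edgeR and 1 cell cycle gene, Klp61F, by DESeq2. At an unadjusted p under 0.05 there was 1 cell cycle gene in each direction and 0 glial or pan-neuronal genes, against 1.99% higher and 1.93% lower of all genes tested. The part of these cells in the results above was not tested.

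In the other 14 positive genes KO GFP-positive libraries were the highest of all 12. Jhbp2, a gene named as a juvenile hormone binding protein (FBgn0250839, 3R, 4956999 to 4961351), had 14.6, 41.4 and 18.5 in KO GFP-positive libraries, against 1.62, 1.49 and 1.75 in WT GFP-positive libraries. It had 1.64, 2.10 and 1.87 in KO GFP-negative libraries, against 2.58, 1.49 and 2.78 in WT GFP-negative libraries. Only KO GFP-positive cells were high, and replicate 2 most so (interaction 3.34, SE 0.435, adjusted p = 0.00238; KO over WT ratio in GFP-positive cells 15.4, or 10.3 without that replicate). CG14459 had 47.3, 63.7 and 79.9 in KO GFP-positive libraries against 15.2, 12.4 and 8.88 in WT GFP-positive libraries, and means of 12 and 17.7 in KO and WT GFP-negative libraries (interaction 2.79, adjusted p = 0.00151). CG14075 had 7.90, 11.8 and 12.8 in KO GFP-positive libraries against 1.08, 0.976 and 0.669 in WT GFP-positive libraries (interaction 2.72, adjusted p = 0.00238), and edgeR on the recovered reads did not call it. bnb (bangles and beads) had 41.3, 72.0 and 40.2 in KO GFP-positive libraries against 14.8, 18.6 and 16.9 in WT GFP-positive libraries, and means of 5.95 and 10.2 in KO and WT GFP-negative libraries (interaction 2.18, adjusted p = 0.0105).

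DIP-beta, a cell surface immunoglobulin protein related to DIP-theta, had 94.3, 150 and 78.3 in KO GFP-positive libraries against 38.3, 34.5 and 28.3 in WT GFP-positive libraries, and means of 33.2 and 39.1 in KO and WT GFP-negative libraries. DIP-beta thus had a positive interaction (1.84, adjusted p = 0.0220) where DIP-theta had a negative one, and was called in 7 of the 12 fits that leave out 1 library (highest adjusted p 0.0706, without KO GFP-negative replicate 1). tey averaged 41.2 ± 8.75 in KO GFP-positive and 10.9 ± 4.43 in WT GFP-positive libraries (SD, n = 3 each; interaction 2.11, adjusted p = 0.0131), and its call was lost without KO GFP-negative replicate 1 (adjusted p = 0.0527). The long noncoding RNA CR44042 averaged 9.44 in KO GFP-positive, 1.47 in WT GFP-positive, 4.64 in KO GFP-negative and 2.57 in WT GFP-negative libraries (interaction 1.40, adjusted p = 0.0317), and it was the single noncoding gene among the 55. It was called in 2 of the 12 fits that leave out 1 library (highest adjusted p 0.111, without KO GFP-negative replicate 1).

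The transcription factors dac and salm and the genes comm and SKIP made smaller steps of this kind. dac (dachshund) had 240, 262 and 246 in KO GFP-positive libraries against 123, 147 and 125 in WT GFP-positive libraries, and means of 139 and 145 in KO and WT GFP-negative libraries (interaction 0.98, SE 0.132, adjusted p = 0.00299). salm (spalt major) averaged 96.3 and 43.7 in KO and WT GFP-positive libraries (interaction 0.93), comm, which sorts the axon guidance receptor Robo, 127 and 58.9 (0.99), and SKIP, named for its interaction with the Shal potassium channel, 471 and 252 (0.82). With 1 library left out, salm was called in 3 of 12 fits (highest adjusted p 0.106) and SKIP in 1 (0.122), both highest without KO GFP-negative replicate 3, and comm in 3 (0.0836, without KO GFP-negative replicate 1). In each of these 4 genes the WT GFP-positive mean was below both GFP-negative means and the KO GFP-positive mean above them.

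vg, CG32795 and Fas2, like bnb and CG14075, were already higher on average in WT GFP-positive than in WT GFP-negative cells. vg (vestigial), a transcriptional co-activator, had 148, 156 and 158 in KO GFP-positive libraries against 81.4, 92.6 and 88.5 in WT GFP-positive libraries, and means of 15.0 and 17.0 in KO and WT GFP-negative libraries (interaction 0.99, adjusted p = 0.0129). Its call was lost without WT GFP-positive replicate 1 (adjusted p = 0.0533). CG32795 averaged 265 ± 26.5 in KO GFP-positive and 93.1 ± 7.77 in WT GFP-positive libraries (SD, n = 3 each; interaction 1.09, adjusted p = 0.0103). Fas2, a homophilic cell adhesion molecule, averaged 597 ± 29.8 and 379 ± 28.5 (interaction 0.67, adjusted p = 0.0460), and was called in 1 of the 12 fits that leave out 1 library, with a highest adjusted p of 0.148 without WT GFP-positive replicate 1.

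**Figure D4:**
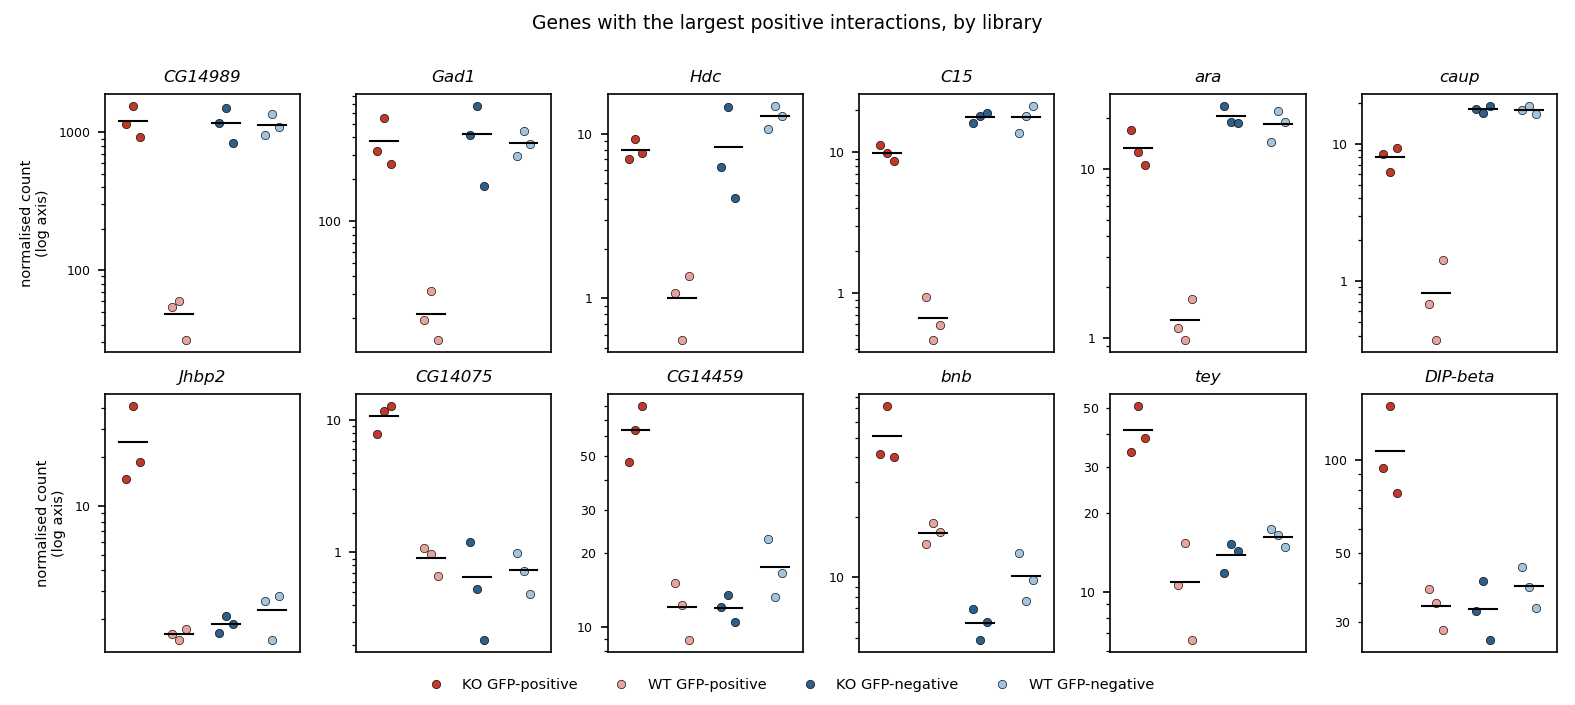
Normalised counts (log axis) of the 12 genes with the largest positive interactions, 1 point per library and a bar at the mean of each group of 3. In the upper row WT GFP-positive libraries are below all others, and in the lower row KO GFP-positive libraries are above all others.

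Transcription factors were called in both directions. Of 66 tested homeodomain and POU factors, 5 had a positive call (C15, ara, caup, zfh1 and ey) and 1 a negative one (otp) in limma, with a list median of -0.001, against 0.282% positive and 0.272% negative over all genes tested. edgeR called the same 6 genes. DESeq2 called the 5 positive ones with en, mirr and vvl, called Dr as negative and gave otp no adjusted p. Of 37 other neuronal transcription factors, 3 had a positive call (Hr51, kn and dac) and 2 a negative one (erm and opa) in limma and edgeR, with a median of 0.03, and DESeq2 added dimm and fkh as positive. The 62 tested genes of the cell recognition immunoglobulin family had 2 positive calls (DIP-beta and Fas2) and 1 negative call (DIP-theta) by limma, edgeR and DESeq2, with a median of 0.22. The median over all genes tested was -0.03.

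Some neuropeptide genes had interactions as large as those of called genes without passing the limma test. Ms (myosuppressin) had 1.46, 39.6 and 1.06 in KO GFP-positive libraries against 127, 463 and 160 in WT GFP-positive libraries, and under 2 in every GFP-negative library. Libraries of the genotypes did not overlap in GFP-positive cells, but replicate 2 was far above the others in both genotypes (interaction -4.74, 95% interval -7.40 to -2.07, adjusted p = 0.198). Tk (tachykinin) averaged 14.3 and 1.52 in KO and WT GFP-positive libraries (interaction 2.59, adjusted p = 0.257). Of 31 tested neuropeptide genes 0 were called by limma or edgeR and 1, Tk, by DESeq2, with 2 positive and 3 negative at an unadjusted p under 0.05, and the list median was 0.08. Among 31 genes of axon guidance and adhesion 0 were called by limma, 1 (trn) by edgeR and 3 (trn, caps and NetB) by DESeq2, and 6 positive and 2 negative had an unadjusted p under 0.05, trn, a leucine-rich repeat cell surface protein, being nearest to the threshold (interaction 0.85, adjusted p = 0.0637). Over all genes tested 1.99% were positive and 1.93% negative at that unadjusted p in limma.

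Of the 33 gene lists, 20 held no gene called by limma. Those 20 lists had medians from -0.24 to 0.29, and of their 346 tested members 17 (4.91%) were higher and 12 (3.47%) lower at an unadjusted p under 0.05, against 1.99% higher and 1.93% lower of all genes tested. edgeR called 1 of the 346 and DESeq2 called 7. The 20 lists include ion channels, receptors for acetylcholine, glutamate, GABA, monoamines and peptides, the synaptic vesicle and active zone, clock genes, stress and immediate early genes, and markers of hemocytes, fat body, muscle, trachea and epidermis, and eye disc. Fbp1 of fat body and Mhc of muscle were low in GFP-positive cells: Fbp1 averaged 0.385 in KO GFP-positive and 0.701 in WT GFP-positive libraries, and Mhc averaged 1.06 and 1.95. The whole muscle list summed to 69.4 to 123 in KO and 99.5 to 127 in WT GFP-positive libraries. Hemocyte genes summed to 104 to 262 in KO GFP-positive, 118 to 275 in WT GFP-positive, 49.9 to 85.0 in KO GFP-negative and 34.2 to 66.7 in WT GFP-negative libraries. Their sums were thus higher in GFP-positive cells.

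**Figure D5:**
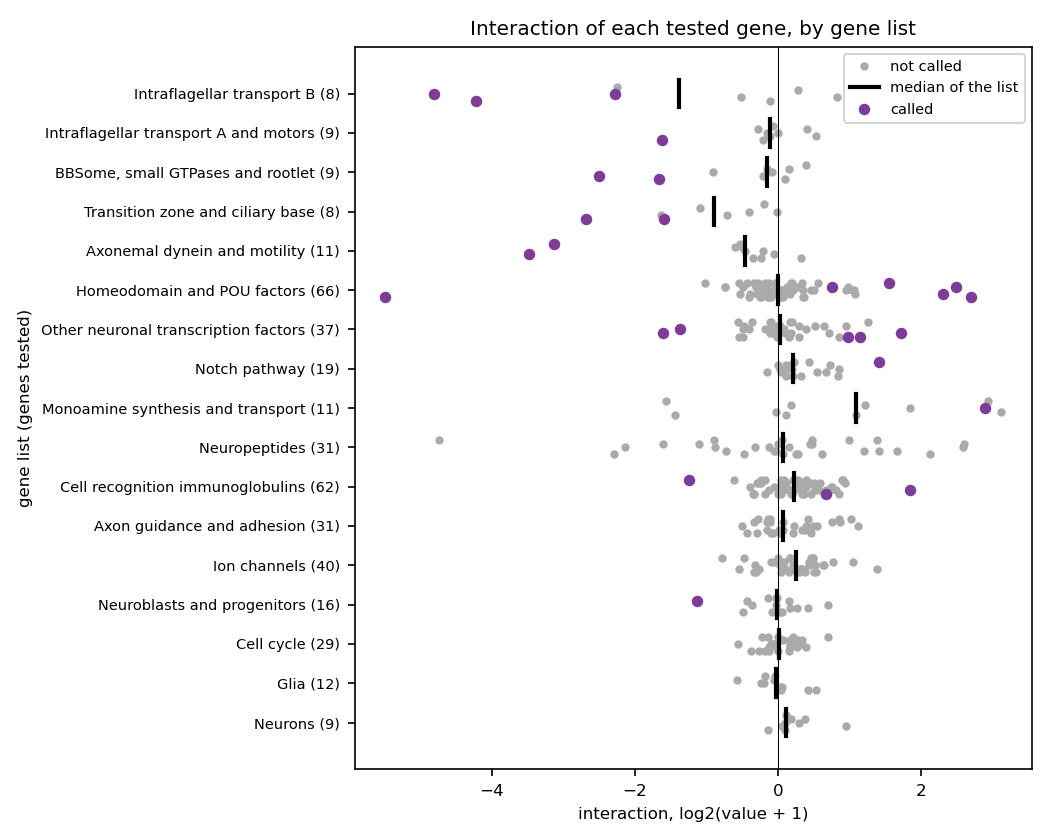
Interaction on log2(value + 1) of each tested gene in 17 gene lists, with the number tested in brackets; purple points are called, grey points are not, and black bars are list medians. The called genes of the 5 ciliary lists at the top all lie left of 0, and the medians of the other lists, apart from monoamine genes at 1.09, lie within 0.3 of 0.

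By chromosome, the 55 genes were 12 on 2L (0.685% of those tested there), 7 on 2R (0.362%), 10 on 3L (0.522%), 18 on 3R (0.759%), 1 on 4 (1.10%) and 7 on X (0.425%). The share over all genes tested was 0.555%. Among the 55 genes 3 pairs lay within 20000 bases of each other, and each pair shared its sign: Gad1 and CG14989, ara and caup, and CG6569 and dnd, which lie 17756 bases apart. Of the 55 genes, 15 shared annotated exon bases with another gene, 9 of them at least 5% of their own exon bases. On the opposite strand, beside dnd and Oatp26F above, these were CG15923 (29.9% with bon), otp (9.53% with the antisense RNA asRNA:CR43160), IFT43 (7.72% with CG6153), nmdyn-D7 (6.32% with CG9444) and FER (5.63% with a gene without a symbol). Reads there cannot be assigned by strand. On the same strand tio shared 15.5% with a gene without a symbol and DIP-theta 12.6% with lncRNA:CR44822. In the other 6 genes each overlap was 0.183% to 4.56%. Near pairs and exon overlaps were not counted over all genes tested, so these counts are a description.

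Sequencing lane was partly tied to genotype, since replicate 3 of WT was on lane 6 and replicate 3 of KO on lane 7. Lane 6 held 1 KO and 2 WT libraries of each fraction, and lane 7 held 2 KO and 1 WT. Computed within each lane, from libraries that also chose the genes, the interaction was -3.74 and -6.33 for otp, -3.95 and -5.11 for nompB, 3.90 and 3.93 for Gad1 and 4.82 and 4.18 for CG14989, lane 6 first. With lane as a covariate all 55 were called again.

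Just inside the threshold were Fas2, GstD11, Reck and B9d1, at adjusted p of 0.0460 to 0.0487. Just outside it, beside 1 gene without a symbol (adjusted p = 0.0554), were Gsc (interaction -1.16, adjusted p = 0.0563), a homeodomain gene with means of 47.7 in KO GFP-positive, 86.7 in WT GFP-positive, 8.35 in KO GFP-negative and 6.53 in WT GFP-negative libraries, Wnt10 (1.41, adjusted p = 0.0570) and Sp1 (-1.13, adjusted p = 0.0610). DESeq2 called all 4 of these and edgeR the gene without a symbol.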

How the data were processed

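RNA of sorted larval brain cells was sequenced in 12 libraries. Per the labels' protocols, cDNA was made with an ultra-low-input SMARTer kit and libraries with Nextera, which keep no strand. The build BDGP6 and the tools HTSeq 0.6.1, TopHat2 2.0.13 and edgeR 3.10.5 are listed in the submitters' processing notes, with no role given. The authors deposited 1 signal value per gene and library, which is the gene's reads divided by an effective library size on a counts-per-million scale. Whole reads were recovered from the smallest step of each library: 100% of values came out whole within 0.001. The table holds 12610 genes, of which 12389 matched a symbol.

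Genes with a value of at least 1 in at least 3 libraries were tested on log2(value + 1) with limma-trend (limma 3.58.1, R 4.3.3), as 4 group means over all libraries, with Benjamini-Hochberg adjustment over 9912 genes. Deposited values are not whole counts, so count tests with edgeR 4.0.16 and DESeq2 1.42.0 on the recovered reads were alternatives. The script was tested on simulated data. Named genes were Rfx, the 14 largest called interactions in each direction with a group mean of at least 5, up to 4 genes per kind of pattern and up to 6 per list by smallest p. All other called genes were then added, and tey was taken off a list because its class was uncertain. Members, lists and rules were chosen with earlier results of these data known. Ratios are of mean values. Intervals are at 95%. Alternatives were other pseudocounts, filters, normalisation, lane as a covariate, a replicate block and leaving out libraries. Exon overlaps came from a BDGP6 annotation of a later release than the authors' files may have used, and no sequence is shown.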

Additional observations from a re-analysis of the deposited data

Results flagged for a closer look

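The interaction is itself a test of whether the KO minus WT difference differs between the GFP-positive and GFP-negative fractions, and 55 genes passed it, so each of them is listed here with its interaction on log2(value + 1).

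Among ciliary genes and Rfx the values were -4.80 for nompB, -4.22 for IFT52, -3.47 for hmw, -3.13 for nmdyn-D7, -2.68 for Fam92, -2.50 for dnd, -2.27 for IFT57, -1.65 for Root, -1.62 for IFT43, -1.59 for B9d1 and -0.85 for Rfx. Among the other negative genes with more RNA in WT GFP-positive than in WT GFP-negative cells they were -5.48 for otp, -4.34 for Oatp26F, -2.45 for GstD11, -2.06 for twy, -1.94 for Ir25a, -1.92 for CG15923, -1.82 for CG6569, -1.53 for CG34355, -1.42 for out, -1.24 for DIP-theta, -1.18 for FER and -0.77 for Drl-2. Among the 4 negative genes with less RNA in WT GFP-positive cells they were -1.61 for erm, -1.56 for dmrt99B, -1.36 for opa and -1.13 for btd.

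Where KO GFP-positive libraries overlapped GFP-negative ones, the positive values were 4.61 for CG14989, 4.02 for Gad1, 2.89 for Hdc, 2.49 for ara, 1.64 for tio and 0.75 for ey. Where they stayed below the GFP-negative libraries, the values were 2.70 for C15, 2.30 for caup, 1.76 for CG32532, 1.72 for Hr51, 1.55 for zfh1, 1.42 for E(spl)m6-BFM, 1.18 for Reck and 1.15 for kn. Where they were above all other libraries, the values were 3.34 for Jhbp2, 2.79 for CG14459, 2.72 for CG14075, 2.18 for bnb, 2.11 for tey, 1.84 for DIP-beta, 1.40 for lncRNA:CR44042, 1.09 for CG32795, 0.99 for vg, 0.99 for comm, 0.98 for dac, 0.93 for salm, 0.82 for SKIP and 0.67 for Fas2.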

How the results depend on the processing

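The count of 55 called interactions (28 positive, 27 negative) became 117 (71 and 46) with DESeq2, 101 (54 and 47) with a replicate block by run of title numbers, and 32 (18 and 14) without title numbers 1 to 4. Leaving out 1 library gave 34 to 51, the fewest without KO GFP-negative replicate 1. It stayed within 1.5 times with edgeR (53), lane as a covariate (74), pseudocounts of 0.5 (53) and 5 (71), no filter (49), a floor of 5 (57), quantile normalisation (67) and when the 2 rRNA-rich libraries were dropped (50). The KO against WT count in GFP-positive cells, 304, became 505 with DESeq2 and 475 with the replicate block, and 203 to 332 with 1 library left out. In GFP-negative cells 68 became 152 with DESeq2 and 99 with the replicate block, and 49 to 71 with 1 library left out. The cause of these moves was not tested.

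No called gene changed its sign under any alternative run. Of the 55, 30 were called in all 12 fits that leave out 1 library and 22 under every setting that gave them an adjusted p. edgeR called 46 of the 55 and DESeq2 53, with no adjusted p for otp and B9d1. The main fit did not use the runs of title numbers as blocks, and no label says what a run shares. Between libraries of a run, deviations from group means mostly went together. Of 18 such correlations 15 were over 0.1, and the range was -0.34 to 0.60. The main fit leaves this shared spread in its errors. With the runs as a block all 55 were called again. Low counts limit B9d1, dnd, IFT52 and hmw, each with under 40 reads over the 3 KO GFP-positive libraries.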
